A study of Mus musculus with 12 samples.

Results

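The genes described here encode the adaptors, kinases and inhibitors that sit just under the Toll-like receptors and the IL-1 receptor family: Myd88, Tirap, Irak1, Irak2, Irak4, Irak3, Sigirr and Tollip. They were taken by symbol from the raw count table, which held all 8 of them among 545 immune genes. Of these, 5 were treated as activating (Myd88, Tirap, Irak1, Irak2 and Irak4) and 3 as inhibitory (Irak3, Sigirr and Tollip). They were measured in microglia, the resident macrophages of the brain, isolated from the hippocampus of control male mice of strain Balbc at postnatal day 28 (P28, n = 6) and postnatal day 14 (P14, n = 6). All animals came from different litters, were raised under control conditions and carried no transgene or treatment that the labels name. Cells were sorted after a Percoll gradient, and their RNA was hybridised to a NanoString nCounter panel of immune genes, an assay that reads fluorescent barcodes on captured targets without sequencing. The comparison of ages is part of a study of early life stress and microglial maturation, and stressed animals were not analysed here.

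When a Toll-like receptor or an IL-1 family receptor binds its ligand, its intracellular TIR domain recruits the adaptor MyD88, for some receptors through the bridging adaptor TIRAP. MyD88 gathers the kinases IRAK4, IRAK1 and IRAK2 into a signalling complex, which passes the signal through the ubiquitin ligase TRAF6 to NF-kB and the MAP kinases. IRAK3, also called IRAK-M and best known from macrophages, lacks the kinase activity of its relatives and restrains the complex, the receptor-like protein SIGIRR interferes at the receptor, and TOLLIP binds IRAK1 and takes part in sorting the receptors inside the cell.

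Levels are raw counts divided by a scale factor from 6 reference genes, called scaled counts below. On that scale the reference genes themselves differed by age, with a log2 difference of P28 minus P14 of -0.61 for Polr1b, -0.26 for Oaz1, 0.07 for Alas1, 0.13 for Tbp, 0.28 for Sdha and 0.38 for Gapdh. The lane threshold is 2 SD above the mean of a lane's negative-control probes, and a raw count over it was taken as above background. All 8 genes were present, that is, above background in at least 40% of the 12 samples. Of the 96 possible readings, only that of Sigirr in P28 sample 134 was below its lane threshold. Total counts of the 545 genes lay between 1025196 and 1534665 at P28 and between 356398 and 1316430 at P14. P14 samples 4 and 5, with totals of 772723 and 356398, differed from the remaining P14 animals in most of these genes as described below. The positive-control probes, spiked in at fixed amounts, also differed by age, with a geometric mean of 1069 to 1235 counts at P28 and 542 to 651 counts at P14. No label gives the cartridge or run, so age and hybridisation efficiency cannot be told apart by that measure. Since these ranges did not overlap, a technical difference between lanes that goes with them would be confounded with age in every comparison below.

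The 6 genes that mark microglia (Cx3cr1, Csf1r, Trem2, Itgam, Ptprc and Tgfbr1) were all present and summed to 199207 to 236166 scaled counts at P28 and 187079 to 218798 at P14. Of these, Trem2 was higher at P28, with 15049 ± 1261 against 9199 ± 1729 at P14. Its log2 fold change was 0.71 ± 0.13 (adjusted p = 0.00069 by edgeR), and -0.07 with positive controls alone as scale. The other 5 did not pass. Markers of other cells, over all list genes on the panel, summed to 155 to 217 at P28 and 139 to 193 at P14 for T cells (2 of 9 genes present, Cd3e, Cd28 and Cd2 above background in no sample), and to 205 to 309 at P28 and 74.2 to 213 at P14 for NK cells (4 of 5 present, Gzmb in no sample). They summed to 243 to 364 at P28 and 401 to 629 at P14 for B cells (3 of 6 present, with Pax5 and Cr2 among those above background in no sample), and to 320 to 434 at P28 and 223 to 434 at P14 for monocytes and border macrophages (3 of 4 present). Neutrophil genes (3 of 6 present, S100a9 in no sample) summed to 4190 to 8272 at P28 and 2875 to 8706 at P14. For endothelial and mural cells (3 of 3 present) the sums were 1857 to 2941 at P28 and 2073 to 3345 at P14, and for neurons and myelinating cells (3 of 3 present) 6652 to 10139 at P28 and 4261 to 6967 at P14. App made up nearly all of the last sum, with 7388 ± 1303 at P28 and 5335 ± 944 at P14, where Mbp had 468 ± 363 and 185 ± 69.2. Within most of these lists single genes went opposite ways, which the sums hide. In the NK list Klrd1 was higher at P28 (log2 fold change 2.72), while Klrk1 (-1.35) and Gzma (-0.82) were lower. Csf3r made up nearly all of the neutrophil sum, with 5186 ± 1504 at P28 and 4626 ± 2404 at P14, while Cxcr2 was lower (-1.74), with 14.1 ± 2.89 at P28 and 46.7 ± 7.93 at P14. Higher too were Cd5 of the T cell list (1.07), Cd79a of the B cell list (0.76), Ccl24 (0.54), Pdgfrb (0.41), Mbp (1.36) and App (0.47), and lower were Cd79b (-1.20), Itgal (-1.13), Cdh5 (-0.63) and Cx3cl1 (-1.73), all past the threshold in edgeR. Several of these folds had at least 1 age at background. At P28 the means of Cxcr2, Klrk1 (15.5), Gzma (16.0), Itgal (18.0) and Cx3cl1 (8.18) lay below all scaled lane thresholds (23.2 to 28.7). At P14 the means of Klrd1 (15.9), Cd5 (20.7) and Cd79a (20.7) lay within the range of scaled lane thresholds (13.9 to 32.0). So did those of Gzma (28.0) and Cx3cl1 (27.0), which were thus near background at both ages. The size of these folds therefore depends on background. The part of these cells in the results was not tested. In bulk RNA of sorted cells, fewer cells of a type and less RNA per cell cannot be told apart.

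At P28 microglia carried more Irak2 and more Irak3 RNA and less Sigirr RNA than at P14, while the other 5 genes did not pass the test. The age groups of Irak2, Irak3 and Sigirr did not overlap. In edgeR's quasi-likelihood test with Benjamini-Hochberg adjustment at an FDR of 0.05 over 366 present genes, 3 of the 8 members were called, against 30.6% of all present genes. Of the 8, 2 were higher and 1 was lower, where 16.7% of all genes were higher and 13.9% lower at P28. The ages did not overlap for 3 of the 8 members, against 20.8% of the 366 genes, so neither share is read as particular to these genes. Without P14 samples 4 and 5, 4 members were called (Tollip in addition), against 43.2% of all genes. With total counts as scale 5 were called, against 40.2%, with Polr1b left out of the reference genes 5, against 33.9% (3 of them lower, against 20.2%), and with positive controls alone 3 (Myd88, Sigirr and Tollip, all lower), against 36.9%. On that last scale the log2 fold changes of Irak2 (-0.31) and Irak3 (-0.20) were negative and not called.

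**Figure D1:**
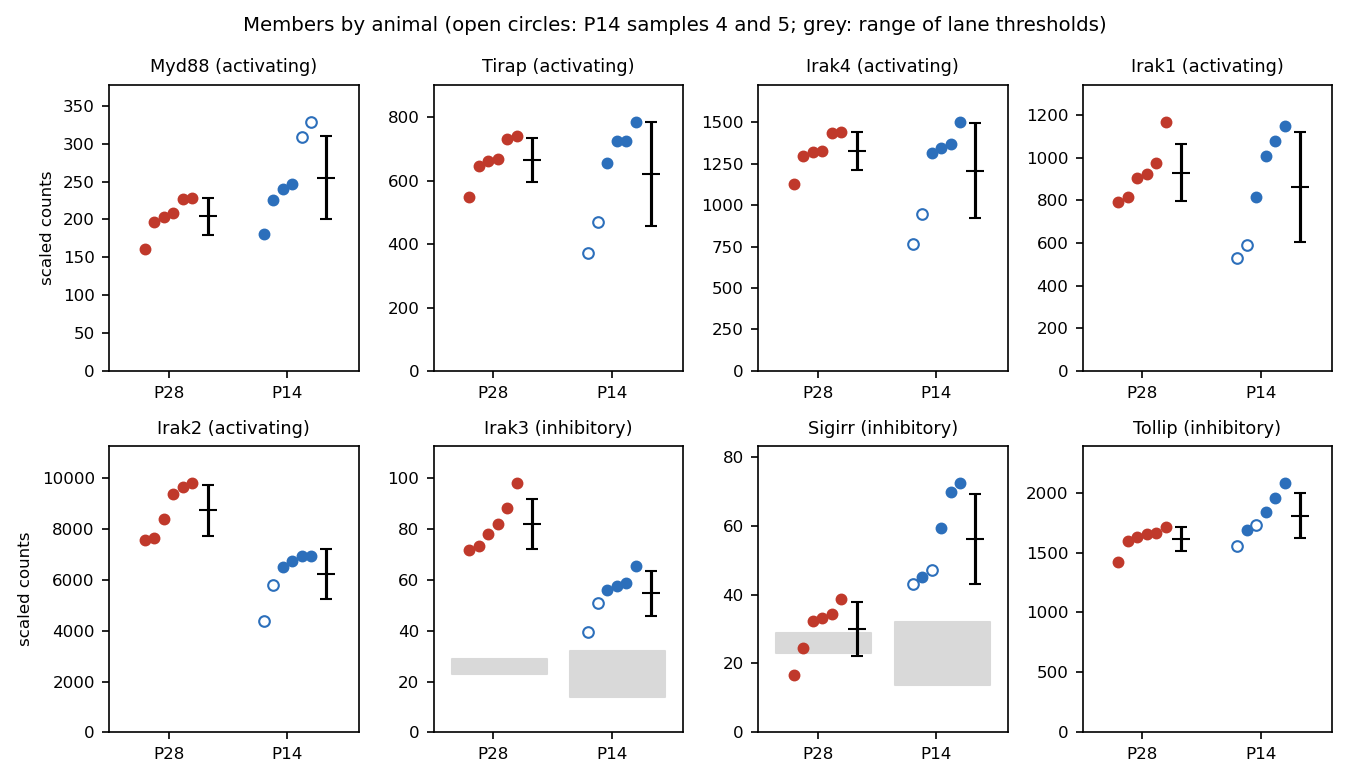
Scaled counts (linear axes from 0) of each member by animal, P28 left and P14 right, with points sorted by value, bars at the mean ± SD of 6 animals and grey bands for the range of scaled lane thresholds beside Irak3 and Sigirr. Irak2 and Irak3 were higher in all P28 samples than in any P14 sample, Sigirr was lower in all of them, and open circles show P14 samples 4 and 5 at the low end for Tirap, Irak4, Irak1, Irak2 and Irak3 and at the high end for Myd88.

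Myd88, the shared adaptor, had a lowest, median and highest level of 161, 206 and 228 scaled counts at P28, against 181, 243 and 329 at P14. The ages overlapped, and the P14 values above the P28 range included 309 and 329 in P14 samples 4 and 5. Its means were 204 ± 24.6 at P28 and 255 ± 54.8 at P14 (SD, n = 6 each), a log2 fold change of -0.31 ± 0.15 (SE) that did not pass the test (adjusted p = 0.131 by edgeR). Without P14 samples 4 and 5, an alternative added with the data in view, its log2 fold change was -0.13 ± 0.13 (adjusted p = 0.457). It passed as lower with total counts as scale (-0.49, adjusted p = 0.0439) and with reference genes other than Polr1b (-0.43, adjusted p = 0.0436).

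Tirap, which links MyD88 to TLR2 and TLR4, ranged from 548 to 741 with a median of 665 at P28, and from 373 to 786 with a median of 689.8 at P14. The P28 range lay wholly inside that of P14. Means were 666 ± 69.8 at P28 and 622 ± 164 at P14 (log2 fold change 0.09 ± 0.17, adjusted p = 0.708 by edgeR).

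Irak4, the kinase that starts the cascade by activating IRAK1, had 1127, 1323 and 1442 scaled counts (lowest, median and highest) at P28, against 767, 1331 and 1502 at P14. Its means of 1325 ± 115 at P28 and 1208 ± 285 at P14 did not pass (log2 fold change 0.13 ± 0.15, adjusted p = 0.576 by edgeR). Irak1, its substrate and partner, had 792, 914 and 1168 at P28 and 532, 912 and 1150.3 at P14. The medians of Irak1 were therefore close while the lowest P14 values were far below the P28 range (log2 fold change 0.11 ± 0.19, adjusted p = 0.706).

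In Tirap, Irak4 and Irak1 the low P14 values belonged to P14 samples 4 and 5. Irak4 had 949 and 767 scaled counts in samples 4 and 5, against 1315 to 1502 in the other 4 P14 samples, and without those 2 its coefficient of variation at P14 was 5.94% in place of 23.6%. Tirap had 469 and 373 in those samples against 655 to 786 in the others, and Irak1 589 and 532 against 816 to 1150.3. Both samples lay below all other P14 samples in 5 of the 8 members (Tirap, Irak1, Irak2, Irak4 and Irak3), as in 47.0% of present genes, and above them in Myd88 alone, as in 13.1% of present genes. Without the 2 samples the log2 fold changes became -0.12 ± 0.10 for Tirap, -0.12 ± 0.13 for Irak1 and -0.06 ± 0.09 for Irak4, and none passed (adjusted p = 0.36, 0.452 and 0.584 by edgeR). These 3 genes therefore gave no called difference between the ages with or without those animals, and the sign of their fold change was negative without them.

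Irak2, the kinase that sustains signalling to TRAF6 after IRAK1 has been used up, had 7580.1, 8888 and 9806 scaled counts (lowest, median and highest) at P28, against 4395, 6635 and 6945 at P14. All P28 samples were above all P14 samples, and P14 samples 4 and 5 gave the lowest values of 5821 and 4395. The means were 8743 ± 1003 at P28 and 6228 ± 991 at P14 (log2 fold change 0.49 ± 0.12, adjusted p = 0.00812 by edgeR). Without samples 4 and 5 the P14 values lay between 6509 and 6945, and Irak2 was still called (0.36 ± 0.09, adjusted p = 0.008). In mouse, Irak2 is also spliced into shorter forms that inhibit the pathway, and the sources used here do not give which forms the probe captures.

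Irak3, the kinase-dead relative that restrains the complex, had 71.8, 80.1 and 97.9 scaled counts at P28, against 39.6, 56.8 and 65.6 at P14. The ages did not overlap, and raw counts of 79 to 121 at P28 and 16 to 76 at P14 put every sample above its lane threshold, the closest being P14 sample 5 with 16 against 12.9. Means were 81.9 ± 9.91 at P28 and 54.7 ± 8.82 at P14 (log2 fold change 0.56 ± 0.14, adjusted p = 0.00554 by edgeR). After the mean of the negative probes was subtracted, the change was 0.75 ± 0.22 (adjusted p = 0.0211 by limma). Irak2 and Irak3 both passed in 25 of 26 alternatives, the exception being positive controls alone as scale. On that scale Irak2 was at -0.31 and Irak3 at -0.20 (adjusted p = 0.427 and 0.608), where the median of all genes was -0.74, so relative to that median they stood at 0.43 and 0.54.

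Sigirr, the receptor-like inhibitor, had 16.8, 32.8 and 38.8 scaled counts (lowest, median and highest) at P28, against 43.0, 53.2 and 72.3 at P14. No P28 sample reached the lowest P14 sample. Its means were 30.0 ± 7.96 at P28 and 56.1 ± 13.0 at P14 (log2 fold change -0.91 ± 0.20, adjusted p = 0.00328 by edgeR). Raw counts at P28 were 15 in sample 134, 31 in sample 119, 32 in sample 138, 36 in sample 135, 41 in sample 137 and 54 in sample 118, with lane thresholds of 24.8 to 33.4. Sigirr was thus close to background at P28, above it in 5 of 6 samples, and in 6 of 6 at P14, where raw counts were 19 to 81. With the mean of the negative probes subtracted, the change was larger and less certain, at -1.45 ± 0.39 (adjusted p = 0.0128 by limma). The call stood in all 25 alternatives that could test Sigirr, including positive controls alone (-1.65, adjusted p = 0.00326) and the data without P14 samples 4 and 5 (-1.02, adjusted p = 0.00181).

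Tollip, which binds IRAK1 and acts in receptor trafficking, had 1418, 1639 and 1709 scaled counts at P28, against 1553, 1785 and 2077 at P14. The ages overlapped, with means of 1611 ± 102 at P28 and 1807 ± 189.7 at P14 (log2 fold change -0.17 ± 0.10, adjusted p = 0.204 by edgeR). It passed as lower without P14 samples 4 and 5 (-0.23 ± 0.08, adjusted p = 0.0444), with total counts (-0.31, adjusted p = 0.016) and with reference genes other than Polr1b (-0.29, adjusted p = 0.0268). Whether Tollip was called therefore depended on the samples and the scale, while its sign was negative in all 26 alternatives. In the authors' deposited table the folds of P28 over P14 were 1.54 for Irak2, 1.64 for Irak3 and 0.58 for Sigirr, and between 0.87 and 1.20 for the 5 other members.

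**Figure D2:**
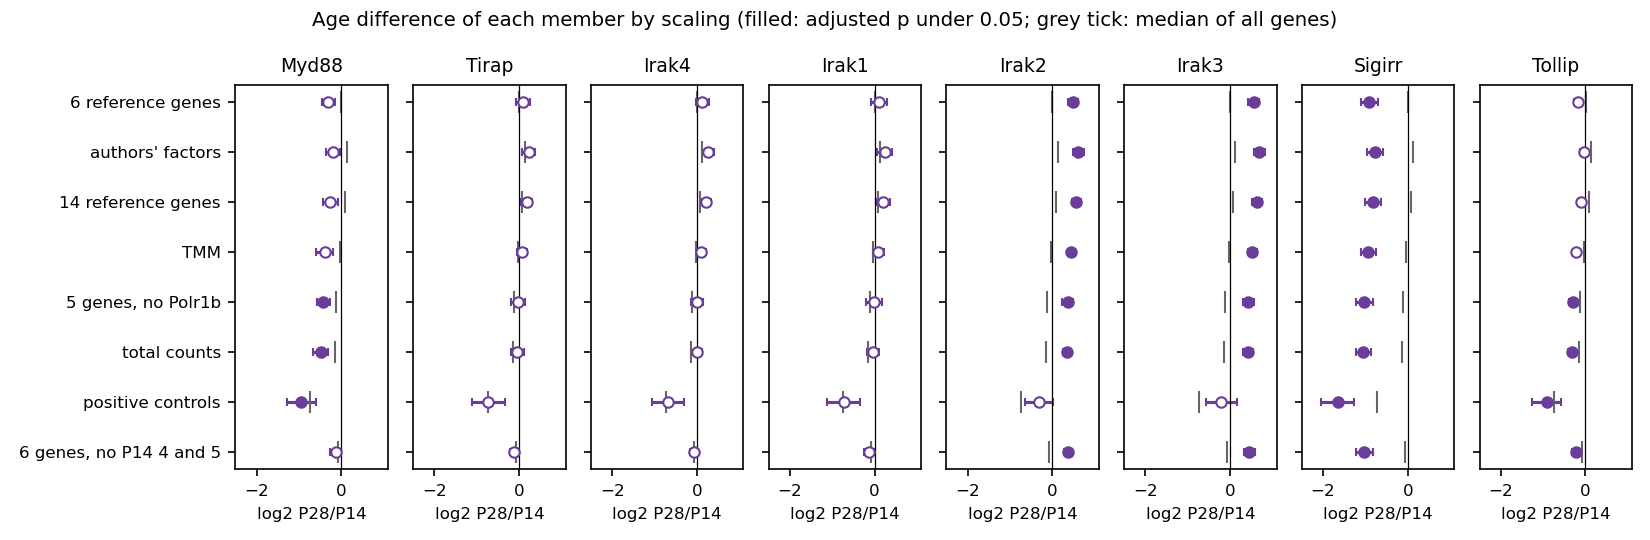
Log2 fold change of P28 over P14 with its SE for each member under 7 scale factors and, in the lowest row, without P14 samples 4 and 5. Filled points had an adjusted p under 0.05 by edgeR, and grey ticks mark the median of all 366 genes, which lay at -0.74 with positive controls alone. Sigirr was filled in every row, and Irak2 and Irak3 in every row but that of positive controls.

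The start regions of the members called higher, Irak2 and Irak3, are shown with that of Myd88, which was not called, since these are the stretches next to each gene's start. They come from RefSeq (GRCm38.p6, the C57BL/6J reference and not the strain of these animals), run from 250 bases before to 50 bases after an annotated start, and are written 5′ to 3′ on the gene's strand. Of the 8 members, 7 had an entry, and Irak3 had 2 starts. Capitals mark a match to a motif searched on both strands: a pair of GAAA with any 2 bases between them (bound by interferon regulatory factors), GAGGAAGT (bound by the myeloid factor PU.1), CACGTG (the E-box) and the NF-kB consensus.
Irak2, chr6:113638217-113638516, plus strand: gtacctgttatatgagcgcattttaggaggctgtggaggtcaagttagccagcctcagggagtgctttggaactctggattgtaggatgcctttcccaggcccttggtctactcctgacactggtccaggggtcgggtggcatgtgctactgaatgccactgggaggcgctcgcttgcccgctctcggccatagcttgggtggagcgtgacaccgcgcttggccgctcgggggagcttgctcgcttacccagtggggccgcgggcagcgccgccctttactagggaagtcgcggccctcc
Irak3, chr10:120201548-120201847, minus strand: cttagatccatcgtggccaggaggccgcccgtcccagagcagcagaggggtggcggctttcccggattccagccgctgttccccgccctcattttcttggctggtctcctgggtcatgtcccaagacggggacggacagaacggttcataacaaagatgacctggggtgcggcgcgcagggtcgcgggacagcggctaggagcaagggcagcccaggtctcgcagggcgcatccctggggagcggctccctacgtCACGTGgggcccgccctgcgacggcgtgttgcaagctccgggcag
Irak3 second start, chr10:120202081-120202380, minus strand: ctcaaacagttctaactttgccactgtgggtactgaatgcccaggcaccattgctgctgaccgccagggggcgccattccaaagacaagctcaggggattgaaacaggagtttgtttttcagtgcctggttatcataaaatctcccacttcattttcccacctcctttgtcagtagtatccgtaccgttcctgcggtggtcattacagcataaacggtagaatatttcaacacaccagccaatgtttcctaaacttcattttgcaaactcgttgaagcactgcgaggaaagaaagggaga
Myd88, chr9:119339969-119340268, minus strand: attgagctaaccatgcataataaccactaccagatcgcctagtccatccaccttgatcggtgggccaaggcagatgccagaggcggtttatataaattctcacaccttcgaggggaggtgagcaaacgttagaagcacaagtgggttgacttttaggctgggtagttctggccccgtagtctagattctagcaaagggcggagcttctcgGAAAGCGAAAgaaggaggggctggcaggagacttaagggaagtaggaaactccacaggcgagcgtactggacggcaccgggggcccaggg

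One Irak3 window held CACGTG at bases 256 to 261, and the Myd88 window held the GAAA pair at bases 211 to 220. The Irak2 window and the second Irak3 window held none of the 4 motifs, so Irak2 and Irak3 shared none of these letters there. Both overlapping Irak1 windows held the NF-kB consensus, while the windows of Irak4, Tirap and Tollip held no match. Among 32851 start regions of the same length, 3.44% held the GAAA pair, 3.2% GAGGAAGT, 7.15% CACGTG and 8.46% the NF-kB consensus. No 2 motifs overlapped in these windows.

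The 3 called members did not divide into activating and inhibitory by the direction of their change, and so few calls cannot settle whether the classes differ. Of the 5 activating genes, Irak2 was higher and 4 did not pass, with a median log2 fold change of 0.11. Of the 3 inhibitory genes, Irak3 was higher, Sigirr was lower and Tollip did not pass, with a median of -0.17. The median of all 366 genes was 0.0026, with 16.7% called higher and 13.9% lower. Averaged on the log2 scale within each sample, the inhibitory minus the activating genes came to -2.92 to -2.63 at P28 and -2.60 to -2.36 at P14. These ranges did not overlap, and the difference of the means, P28 minus P14, was -0.29 with a pooled SD of 0.11. Only the change with age is read here, since probes differ in efficiency. With Sigirr left out after its values were seen, the ranges of Irak3 and Tollip minus the activating genes overlapped, at -1.67 to -1.44 at P28 and -1.77 to -1.52 at P14, and the difference was 0.08. The sign of the difference between the ages thus changed when Sigirr, the gene nearest to background, was left out. Leaving out other members was not tried. Irak3 moved the other way from Sigirr, and the activating average includes Irak2, which was called higher.

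Ratios of counts within a sample do not depend on any scale factor. The log2 ratio of Irak3 to Irak4 was -4.20 to -3.76 at P28 and -4.74 to -4.22 at P14, with no overlap and a difference of the means of 0.42. Irak3 to Myd88 also separated the ages, at -1.64 to -0.87 at P28 and -3.06 to -1.65 at P14. Irak3 to Irak2 did not, with means of -6.74 ± 0.18 at P28 and -6.83 ± 0.09 at P14 and a difference of 0.09, so the ratio of the 2 members called higher overlapped between the ages.

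Sigirr to Irak3, both inhibitors, gave the largest difference of the means among the 5 pairs drawn, at -2.40 to -0.92 at P28 and -0.36 to 0.30 at P14, a difference of -1.51. The lowest of these was P28 sample 134, where Sigirr was below its lane threshold. Sigirr to Irak4 was -6.42 to -5.07 at P28 and -4.87 to -4.03 at P14, a difference of -1.09. With the mean of the negative probes subtracted the differences were -2.20 for Sigirr to Irak3 and -1.62 for Sigirr to Irak4, again with no overlap. Irak2 to Irak4 overlapped, at 2.53 to 3.06 at P28 and 2.21 to 2.62 at P14. That overlap came from P14 sample 4, at 2.62, and without samples 4 and 5 the highest P14 ratio was 2.37.

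**Figure D3:**
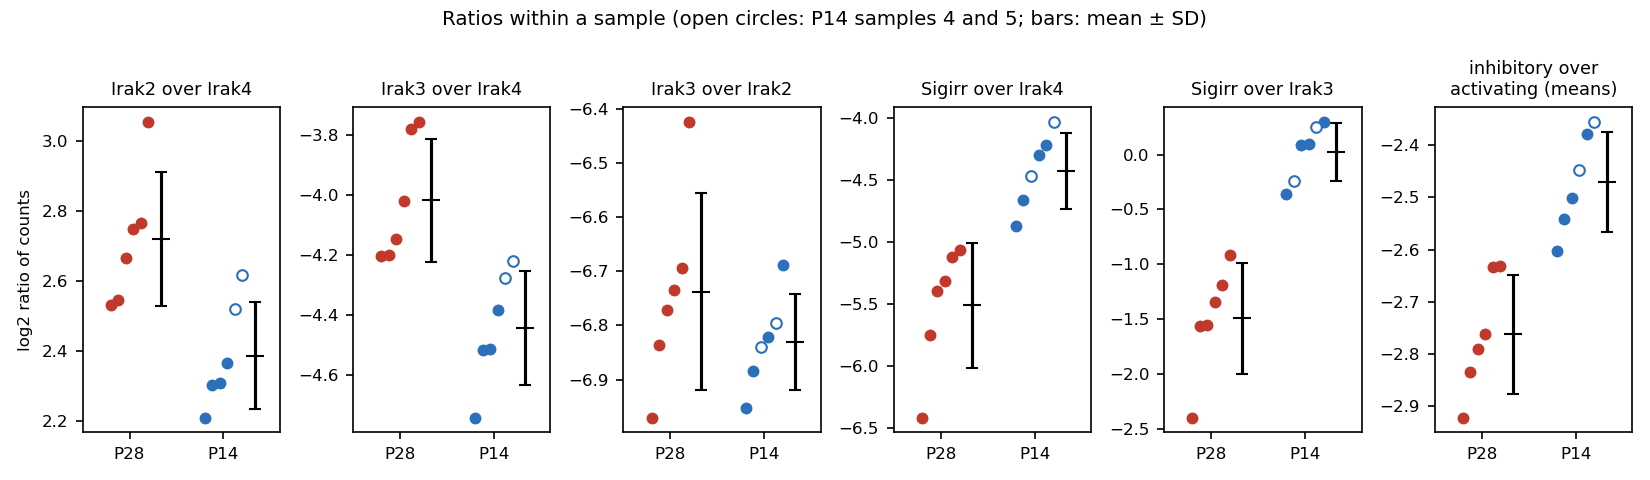
Log2 ratios within a sample for 5 gene pairs and for the mean of the inhibitory over the mean of the activating genes, P28 left and P14 right, with points sorted by value and bars at the mean ± SD of 6 animals (axes do not start at 0). Sigirr over Irak3 was at most -0.92 in P28 samples and at least -0.36 in P14 samples, whereas Irak3 over Irak2 overlapped between the ages.

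Among all 28 pairs of members, 12 had ratios that did not overlap between the ages, against 21.7% of the 66795 pairs of present genes. Without P14 samples 4 and 5 the counts were 16 of 28 pairs, against 32.1%. Pairs share genes and are not independent. Sigirr separated from 6 of its 7 partners, all but Myd88, and Irak3 from 5 of 7, all but Irak1 and Irak2. Tollip separated from 4 of 7, which were Irak2, Irak3, Irak4 and Sigirr. Among Myd88, Tirap, Irak1 and Irak4, 0 of the 6 pairs separated, with or without P14 samples 4 and 5. Tirap to Irak4 was the steadiest of these, with a mean of -0.99 ± 0.09 at P28 and -0.97 ± 0.06 at P14 (SD of the log2 ratio, n = 6 each).

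Each member but Sigirr was also matched to the present gene whose log2 scaled counts were most like its own over the 12 samples. Samples share scale factors, and P14 samples 4 and 5 and the age difference of both genes can raise such a correlation. Pearson's r is therefore given over all samples, over the 10 samples other than P14 4 and 5, and over all samples with each age centred on its mean, as a description. Each gene was picked as the highest among all other present genes, and that choice alone favours a high r. The further values use the same samples and are not separate checks. Irak3 was most like the urokinase gene Plau (r = 0.96, 0.95 over 10 samples and 0.88 with ages centred) and Irak2 most like the prostaglandin receptor gene Ptger4 (0.95, 0.91 and 0.88). Tollip was most like Tlr1 (0.94, 0.98 and 0.94). For Irak4 the gene was Tcf4 (0.99, 0.91 and 0.99), for Tirap Casp8 (0.99, 0.93 and 0.99), for Irak1 Phlpp1 (0.95, 0.85 and 0.95) and for Myd88 Nfil3 (0.89, 0.71 and 0.86).

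The other genes of the pathway were taken from a list by role. The panel held 57 of the 78 listed, and 46 were present, of which 9 were higher and 3 lower at P28 while 34 did not pass, with a median log2 fold change of 0.06. Of all present genes 16.7% were higher and 13.9% lower, so these counts, and those by role that follow, are a description and not a result particular to the pathway. Without P14 samples 4 and 5 the counts were 8 higher and 13 lower, where 18.6% of all genes were higher and 24.6% lower. Scaled by the positive controls they were 0 higher and 12 lower, where 2.19% of the 366 genes passed as higher and 34.7% as lower. Calls in the higher direction are therefore relative to the reference genes.

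Of 13 receptor genes, Tlr3 and Tlr9 were higher, Ly96 was lower and 10 did not pass. Tlr9, a sensor of unmethylated DNA that signals through MyD88, had 8588 ± 1149 scaled counts at P28 and 7068 ± 173 at P14 (log2 fold change 0.28 ± 0.10, adjusted p = 0.0392 by edgeR, and -0.45 with positive controls alone). Ly96, which encodes MD-2, the lipopolysaccharide-binding partner of TLR4, had 60.1 ± 14.9 at P28 and 86.8 ± 18.1 at P14 (-0.53 ± 0.19, adjusted p = 0.0462). Tlr3, a sensor of double-stranded RNA that uses TRIF in place of MyD88, had 4060 ± 533 at P28 and 2592 ± 415 at P14 (0.65 ± 0.13, adjusted p = 0.00148, and -0.15 with positive controls alone). Of 13 relays after the IRAKs, Rela was higher, Nfkb1 and Relb were lower and 10 did not pass. Rela, the main activating NF-kB subunit, had 2996 ± 690 at P28 and 2156 ± 309 at P14 (0.47 ± 0.15, adjusted p = 0.0225), a call lost without P14 samples 4 and 5 (0.36, adjusted p = 0.0625) and a sign turned with positive controls alone (-0.32). Nfkb1, which encodes the precursor of the NF-kB subunit p50, had 2955 ± 382 at P28 and 4747 ± 1257 at P14 (-0.68 ± 0.18, adjusted p = 0.00818), and Relb, a subunit of the non-canonical NF-kB route, had 61.3 ± 11.4 at P28 and 105 ± 25.6 at P14 (-0.78 ± 0.18, adjusted p = 0.00397).

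Of 4 present genes of the TRIF branch, the route of TLR3 and TLR4 that does not use MyD88, 0 passed in edgeR, with 1 at an unadjusted p under 0.05, and 1 passed in DESeq2 and 0 in limma. Of 6 genes listed as other brakes, a role set by the list and not by these data, Nfkbiz and Socs3 were higher and 4 did not pass. Socs3, which encodes a feedback inhibitor of cytokine signalling, had 2184 ± 319 at P28 and 957 ± 428 at P14 (1.19 ± 0.26, adjusted p = 0.00276), and Nfkbiz, an inducible regulator of NF-kB targets, was at 0.73 ± 0.18 (adjusted p = 0.00587), both calls lost with positive controls alone (0.34 and 0.05). Of 10 output genes, Tnf, Il1a, Il1b and Ccl4 were higher and 6 did not pass, with a median of 0.39 (16.7% of all present genes were higher). Tnf, the gene of tumour necrosis factor, had 1221 ± 154 scaled counts at P28 and 660 ± 177 at P14 (0.88 ± 0.17, adjusted p = 0.000945). Il1a, which encodes the cytokine IL-1 alpha, had 7356 ± 550 scaled counts at P28 and 4665 ± 1370 at P14 (0.66 ± 0.17, adjusted p = 0.00818). Il1b, the gene of IL-1 beta, had 103 ± 13.7 at P28 and 69.9 ± 13.4 at P14 (0.54 ± 0.15, adjusted p = 0.0121, and -0.22 with positive controls alone). Ccl4, a chemokine gene, had 1813 ± 706 at P28 and 870 ± 478 at P14 (1.06 ± 0.32, adjusted p = 0.0206). The calls of Tnf, Il1a and Ccl4 were lost with positive controls alone, where they stood at 0.14, 0.03 and 0.49.

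**Figure D4:**
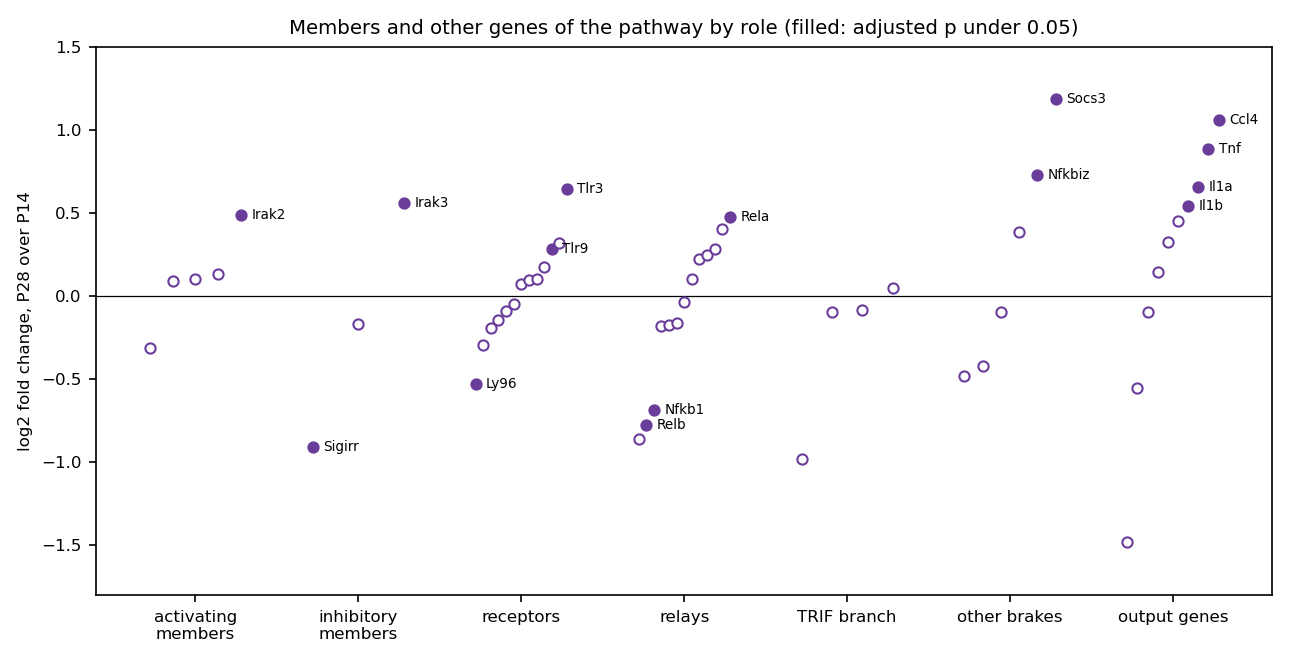
Log2 fold change of P28 over P14 for the 8 members and 46 other present genes of the pathway, grouped by role and sorted by value, with filled points for an adjusted p under 0.05 by edgeR. Irak2 and Irak3 lie above 0 and Sigirr below it, while called output genes all lie above 0.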

How the data were processed

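Microglia of 12 control animals were measured, 6 at each age, which the titles state together with the sample number used here. From 2 ng of RNA, cDNA was made and put through 5 PCR rounds ahead of hybridisation, per the labels' protocols, so counts are not independent molecules. The authors' deposited raw table holds barcode counts per probe, with 14 reference genes and 8 negative and 6 positive probes beside the 545 genes. A table of values scaled by the authors, used as a score, also gives their fold (a ratio of age means) and a p-value, the header naming a t-test. The sources used here do not give the counting software. Every per-sample column matched a sample.

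Counts of 366 present genes were fitted with edgeR 4.0.16 (R 4.3.3; glmQLFit, glmQLFTest), with the geometric mean of Alas1, Gapdh, Oaz1, Polr1b, Sdha and Tbp as offset, a single age term, and p-values adjusted over all of them by Benjamini-Hochberg. Log2 levels use a pseudocount of 1. Alternatives were DESeq2 1.42.0, limma 3.58.1, other scale factors, presence rules, a pseudocount of 10, background subtraction, and samples left out. Tested on counts simulated for the 366 genes of this comparison, edgeR found 74 of the 100 with a 1.5-fold difference and 96 of the 100 with a 2-fold one, and called 1 of 166 left unchanged. All 8 probe accessions matched the same symbol in RefSeq. Named genes are the members, the pathway genes past the threshold and the gene most like each member, which for Sigirr is not reported here. Members, lists and tests were chosen with earlier results of these data known. The files name no build, so coordinates are given only for the RefSeq start regions.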

Additional observations from a re-analysis of the deposited data

Results flagged for a closer look

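No sample of a member stood apart from the rest of its age. In 16 groups of 6 samples, 8 genes at 2 ages, 0 had a gap at either end large enough, relative to the group's range, to pass Dixon's critical value, which chance passes in about 1 of 20 groups. P14 samples 4 and 5 lie low together, and this screen does not detect a pair.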

How the results depend on the processing

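No paired analysis was possible because the ages share no sample numbers. Irak2 and Irak3 kept their direction and call in every alternative but positive controls alone, and Sigirr in all that tested it, since requiring a probe above background in all samples removes it and leaves 0 members lower (36 of 276 genes were lower there). Members higher numbered 2 in the main analysis and 0 with positive controls alone (0 at an unadjusted p under 0.05 in edgeR). Of all present genes 16.7% and 2.19% were higher in these settings. Members lower numbered 1 in the main analysis, 3 without Polr1b, with total counts and with positive controls alone, and 2 without P14 samples 4 and 5. Of all present genes 13.9%, 20.2%, 26.2%, 34.7% and 24.6% were lower in these settings, in that order, so the counts are not read as particular to the members. With single samples left out, members lower numbered 1 to 2. The 2 arose without P14 sample 25 (Myd88 -0.40, adjusted p = 0.0498 by edgeR), where 50 of the 366 genes were lower.

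With positive controls alone the log2 fold changes turned to -0.31 for Irak2, -0.20 for Irak3, -0.72 for Tirap, -0.73 for Irak1 and -0.68 for Irak4, and the medians to -0.72 for activating and -0.91 for inhibitory members. Without P14 samples 4 and 5 the activating median was -0.12, with Tirap at -0.12, Irak1 at -0.12 and Irak4 at -0.062. Without Polr1b, Tirap was at -0.033 and Irak1 at -0.016. With total counts, Tirap was at -0.039, Irak1 at -0.036 and Irak4 at -0.0047. Leaving out single samples gave -0.015 (without P14 sample 5) to 0.17 for Tirap. The inhibitory minus activating change was -0.42 with background subtracted. Among present genes, those higher numbered 61 in the main analysis, 93 with the authors' own factors and 8 with positive controls alone. Those lower numbered 51 in the main analysis, 96 with total counts, 127 with positive controls alone and 90 without P14 samples 4 and 5. With limma on the authors' values 26 were lower, but of 335 genes tested in place of 366, and with tool and scaling changed together. Scaling moved the median of all genes to 0.13 with the authors' factors, -0.14 with total counts and -0.12 without Polr1b. The causes were not tested. Depth limits Sigirr and Irak3, with as few as 15 and 16 raw counts in a sample.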

Other observations

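In all, 10 pathway genes, all lower at P28, were not called by edgeR with all samples and the 6 reference genes but were called when P14 samples 4 and 5 were left out, an alternative added with the data in view. Over all present genes the share called lower went from 13.9% to 24.6%, so this count is not read as particular to the pathway. Of the 10, Tlr1, Irf7, Ikbke, Tnfaip3 and Cxcl10 were also called lower with all samples and positive controls alone as scale, where 34.7% of all present genes were lower. Tnfaip3, which encodes the deubiquitinase A20, a brake on NF-kB, was at -0.73 (adjusted p = 0.000851) in place of -0.48 (0.0924). Ikbke, a kinase of the interferon route, was at -1.31 (adjusted p = 0.00504) in place of -0.98 (0.0524), and Irf3, the factor it activates, at -0.39 (0.00675) in place of -0.08 (0.822). Tlr1 was at -0.47 (adjusted p = 0.0112) and Tlr5 at -0.31 (0.0172), against -0.30 and -0.05 with all samples. The others were Nfkb2 (-0.42), Irf7 (-1.09), Mapk14 (-0.51), Socs1 (-0.48) and Cxcl10 (-1.89). In the same data 11 of the 12 pathway genes called with all samples were called again, all but Rela.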
